A study of Mus musculus with 8 samples.

Results

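Sertoli cells are the somatic cells of the seminiferous tubule that hold and nourish the germ cells. The genes described here are 9 genes of Sertoli cell identity and hormone response, chosen by name and looked up by their Ensembl identifiers. They are the transcription factor genes Sox9, Sox8, Wt1, Gata4 and Gata1, the receptor gene Fshr, the homeobox gene Rhox5, and Clu and Aard. Of the 9, 8 had values among the 17127 genes of the expression table and Fshr is not analysed here. Whole testes of adult mice, 4 months old by the methods, were sequenced as RNA, 1 library per sample. The wild-type group (n = 4) and the Iqch -/- group (n = 3, mutants 1, 2 and 4 of those listed) shared a C57BL/6 and CBA hybrid background. The mutation was a small CRISPR-Cas9 deletion in exon 19 of Iqch, carried in the germ line and so present in germ cells and Sertoli cells alike. The labels do not name the mutant line of the libraries, while the study's plot of RNA-seq coverage over Iqch names the line mu7, and mutant 3 is not analysed here.

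In the testis, SRY turns on Sox9, and SOX9 with SOX8 then keeps the supporting cells on the Sertoli path. WT1 and GATA4 act with them during gonad formation and stay on in the adult Sertoli cell. Adult Sertoli cells take 2 hormonal inputs, FSH from the pituitary through FSHR and cyclic AMP, and testosterone from Leydig cells. Rhox5 is a classical androgen response gene of the Sertoli cell, and Clu encodes clusterin, a glycoprotein that Sertoli cells secrete in large amounts.

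Values are in CPM, so that each library sums to 1000000 over its genes. Each library held between 32064384 and 37551057 reads over the genes of the table. Iqch itself had 208 ± 11.3 CPM in wild type (SD, n = 4) and 67.3 ± 2.25 in the mutants (SD, n = 3), a log2 fold change of -1.63, and no mutant library reached any wild-type library. Across all 17126 genes tested with limma at a false discovery rate (FDR) of 0.01, 6212 genes (36.3%) were higher in the mutants and 2428 (14.2%) were lower. The median gene stood 0.12 higher on the log2 scale. With median-of-ratios size factors that median was -0.01, and the split was 4627 genes higher and 4294 lower. The members' changes are therefore also given above the median of all genes.

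All 8 members with values rose in the mutants at the FDR of 0.01, against the 36.3% of all genes that did so. In each of the 8, every mutant library lay above every wild-type library, as in 42.8% of all genes tested. The rises ran from 1.28 times for Sox9 to 2.13 times for Clu. For each single gene the exact two-sided permutation test over the 35 arrangements of the libraries gave p = 0.0286, the smallest that 3 against 4 libraries allow. The paper reports smaller testes in the mutants and, by flow cytometry, a lower proportion of haploid germ cells. By number, it reports fewer cells of every ploidy class. Its flow cytometry used mice of 8 months, older than those sequenced, and germ cells kept after Sertoli and Leydig cells had been removed. CPM is a share of the RNA of a whole testis. More Sertoli cells in the sample, more RNA per Sertoli cell and less RNA from spermatids therefore cannot be told apart.

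**Figure D1:**
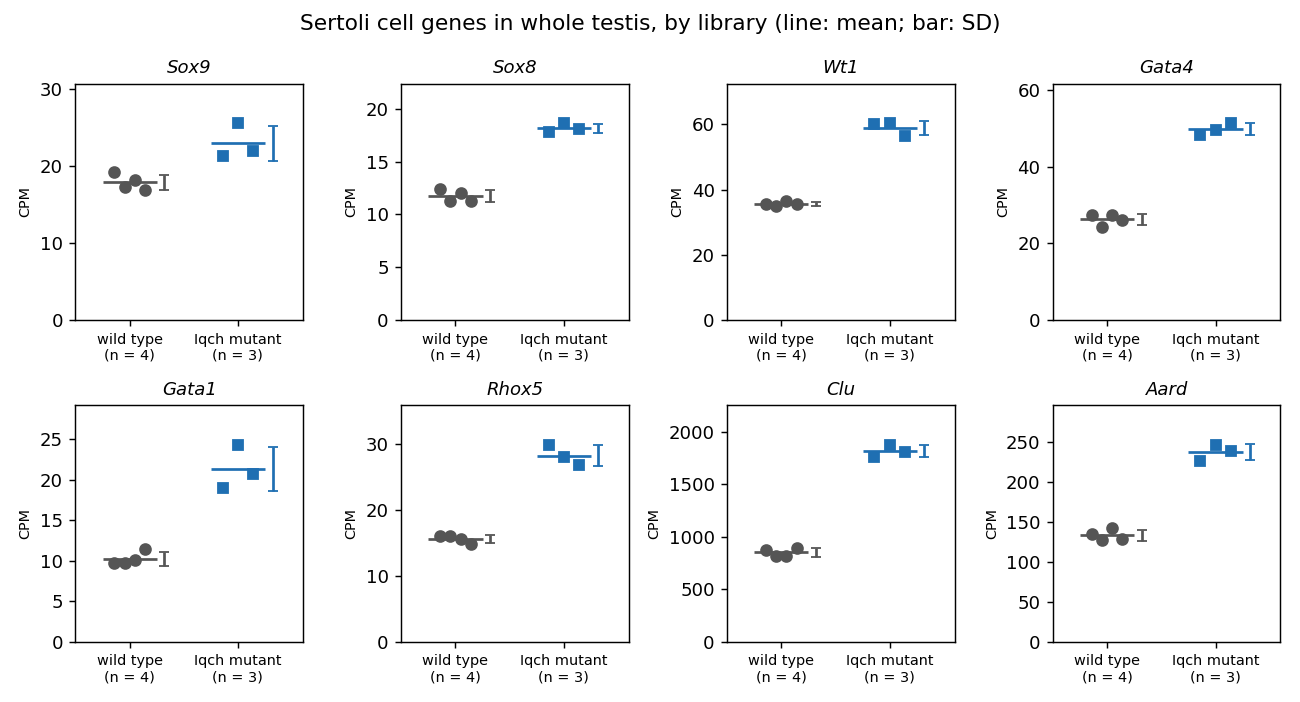
CPM of the 8 genes with values in each library, on linear axes that start at 0. Circles are the 4 wild-type libraries, squares the 3 Iqch mutant libraries, lines the means and bars the SD. The groups do not overlap in any panel, and Sox9 has the smallest gap, from 19.2 CPM in the highest wild-type library to 21.3 in the lowest mutant.

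The start regions of Rhox5 and Gata1 are shown because Rhox5 is the androgen response gene among the members and Gata1 the transcription factor gene that rose most. They are the 250 bases before the RefSeq start, 5′ to 3′ on the gene's strand, from RefSeq on GRCm38.p6, while all other coordinates are on GRCm39 from GENCODE. A start window was found for 4 of the 9 genes. Both strands were searched for the letters AGAACA, an androgen response half-site. They were also searched for a GATA site, written AGATAA or, in its second common form, TGATAA. The other motifs were a SOX core, with the letters ACAAT, and a half-site of the receptor NR5A1, with the letters AAGGTCA. Capitals mark the bases that match any of them.
Rhox5, chrX:37754358-37754607, plus strand: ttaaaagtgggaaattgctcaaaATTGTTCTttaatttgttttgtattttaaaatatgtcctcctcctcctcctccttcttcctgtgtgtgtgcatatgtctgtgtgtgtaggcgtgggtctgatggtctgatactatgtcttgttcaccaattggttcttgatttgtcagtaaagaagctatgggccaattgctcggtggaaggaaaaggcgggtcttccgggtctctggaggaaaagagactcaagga
Gata1, chrX:7967911-7968160, minus strand: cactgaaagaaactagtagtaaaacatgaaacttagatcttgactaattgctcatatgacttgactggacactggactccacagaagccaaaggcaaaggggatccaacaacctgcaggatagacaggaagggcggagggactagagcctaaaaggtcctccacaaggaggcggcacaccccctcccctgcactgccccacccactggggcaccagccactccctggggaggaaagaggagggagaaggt
The Rhox5 window held the androgen response half-site on the minus strand, from base -225 to -220 before the start, and the SOX core at -227 to -223, which overlaps it. Of the 32536 windows of the same length, 16.03% held the half-site and 27.4% the SOX core. The Gata1 window held none of these letters, and neither did that of Sox8, whereas 16.5% of all windows held a GATA site and 4.09% the NR5A1 half-site. Each window covers 1 start only. For Rhox5 GENCODE lists 4 starts, and the RefSeq start searched lies upstream of the canonical one, at -104 bp. For Gata1 it lists 4 starts, the farthest 10161 bp upstream of the one searched, and for Sox8 it lists 7. Which start was used in these libraries was not tested. These bases are those of the reference strain and not of the hybrid animals, and a match is a match of letters and not a measured site.

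Sox9, the master gene of the Sertoli cell fate (ENSMUSG00000000567, chr11:112673009-112678586, plus strand, 3 exons), rose least. It had 19.2, 17.3, 18.2 and 16.9 CPM in wild type 1 to 4 and 21.3, 25.6 and 22.0 in mutants 1, 2 and 4. The log2 fold change was 0.36 ± 0.08 (SE, limma FDR = 0.0017), which is 0.23 above the median of all genes. Mutant 2 stood highest, and without it the log2 fold change was 0.28 (limma FDR = 0.011). With median-of-ratios size factors it was 0.22 (limma FDR = 0.022), so that the call for Sox9 was lost in both cases.

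Sox8, the close relative of Sox9 that acts beside it in the supporting cells (ENSMUSG00000024176, chr17:25784634-25789726, minus strand, 3 exons), rose more. It had 12.4, 11.3, 12.02 and 11.3 CPM in wild type 1 to 4 and 17.8, 18.6 and 18.1 in mutants 1, 2 and 4. The mutants were tightly placed, with a coefficient of variation of 2.37%. The log2 fold change was 0.63 ± 0.07 (SE, limma FDR = 9.7e-06), or 0.50 above the median of all genes.

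Wt1, a zinc finger factor needed to build the gonad and to maintain the adult Sertoli cell (ENSMUSG00000016458, chr2:104956625-105003961, plus strand, 10 exons), had the steadiest wild-type level of the 8. Its CPM was 35.5, 35.1, 36.5 and 35.7 in wild type 1 to 4 and 60.1, 60.4 and 56.5 in mutants 1, 2 and 4. The spread was 1.76% of the mean in wild type and 3.67% in the mutants, against a rise of 1.65 times. The log2 fold change was 0.72 ± 0.05 (SE, limma FDR = 1.1e-07), or 0.60 above the median of all genes. Its antisense neighbour Wt1os, which overlaps 3.82% of the exon bases of Wt1, went from 5.55 to 9.01 CPM.

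Gata4, a zinc finger factor of Sertoli and Leydig cells (ENSMUSG00000021944, chr14:63436362-63509141, minus strand, 7 exons), had 27.4, 24.3, 27.3 and 26.2 CPM in wild type 1 to 4. The mutants 1, 2 and 4 had 48.4, 49.8 and 51.5 CPM. The lowest mutant thus stood well clear of the highest wild type, and the log2 fold change was 0.92 ± 0.06 (SE, limma FDR = 6.2e-08), or 0.80 above that median. Leydig cell genes moved with it. The summed CPM of the 8 Leydig markers was 1132 to 1345 in wild type and 4709 to 4853 in the mutants, and 7 of the 8 rose. Insl3 alone went from 438 to 2941 CPM and made up most of the rise of the sum. The median log2 fold change of the 8 was 1.64. The part of Leydig cells in the value of Gata4 was not tested.

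Gata1, the factor of red cell, megakaryocyte and mast cell lineages that Sertoli cells also use (ENSMUSG00000031162, chrX:7825499-7844310, minus strand, 6 exons), rose most among the transcription factors. It had 9.66, 9.70, 10.1 and 11.4 CPM in wild type 1 to 4 and 18.9, 24.3 and 20.7 in mutants 1, 2 and 4. It was also the most variable member, with a spread of 12.9% of the mean among the mutants, and the thinnest, with 323 reads in its lowest library. The log2 fold change was 1.05 ± 0.10 (SE, limma FDR = 1.3e-06), or 0.92 above the median of all genes. Of 12 genes of blood lineages, listed after the values of the table had been seen, 6 had values. Their sum was 36.4 to 51.5 CPM in wild type and 44.7 to 57.4 in the mutants, with overlapping groups. Pf4, a platelet chemokine gene, rose by 1.34 on the log2 scale (1.61 to 4.36 CPM), while the haemoglobin genes Hba-a1, Hba-a2 and Hbb-bs, with Alas2 and Itga2b, were not called. Pf4 lay below the 2.2 CPM minimum of the fit in every wild-type library, so it could enter the test only through a rise. The part of blood cells in the value of Gata1 was not tested.

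Among the other members, Rhox5 (ENSMUSG00000095180, chrX:36891636-36897311, plus strand, 6 exons) had 16.1, 16.1, 15.7 and 14.8 CPM in wild type 1 to 4. Mutants 1, 2 and 4 had 29.9, 28.0 and 26.9 CPM, each well above the wild-type libraries. The log2 fold change was 0.85 ± 0.07 (SE, limma FDR = 3.3e-07), or 0.73 above the median of all genes. RHOX5 is itself a homeobox protein. Counting it with the transcription factors leaves Clu and Aard as the other members.

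Clu (ENSMUSG00000022037, chr14:66190200-66218999, plus strand, 9 exons) was by far the most abundant member and rose most. It had 879, 816, 818 and 890 CPM in wild type 1 to 4 and 1765, 1877 and 1805 in mutants 1, 2 and 4. The log2 fold change was 1.09 ± 0.04 (SE, limma FDR = 1.5e-09), the smallest standard error of the 8, with between 26876 and 61424 reads behind each value. Above the median of all genes it was 0.97. Clusterin is also made by many other cell types, and the share from Sertoli cells was not measured.

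Aard, a gene known mainly by its expression in Sertoli cells (ENSMUSG00000068522, chr15:51903503-51909204, plus strand, 2 exons), had 135, 127, 142 and 129 CPM in wild type 1 to 4. Mutants 1, 2 and 4 had 226, 247 and 239 CPM. All mutants again lay above all wild types, and the log2 fold change was 0.83 ± 0.05 (SE, limma FDR = 2.9e-08), or 0.71 above the median of all genes.

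The transcription factors were then set against the other members, which is the comparison for which the genes were grouped. The median log2 fold change was 0.72 over the 5 transcription factors and 0.85 over Rhox5, Clu and Aard, against 0.12 over all genes tested. The groups were not separate, since Gata4 and Gata1 rose more than Rhox5 and Aard. Among the transcription factors the fitted change ran from 0.36 for Sox9 to 1.05 for Gata1, a wider range than the 0.83 to 1.09 of the others. With median-of-ratios size factors the medians were 0.59 and 0.71.

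**Figure D2:**
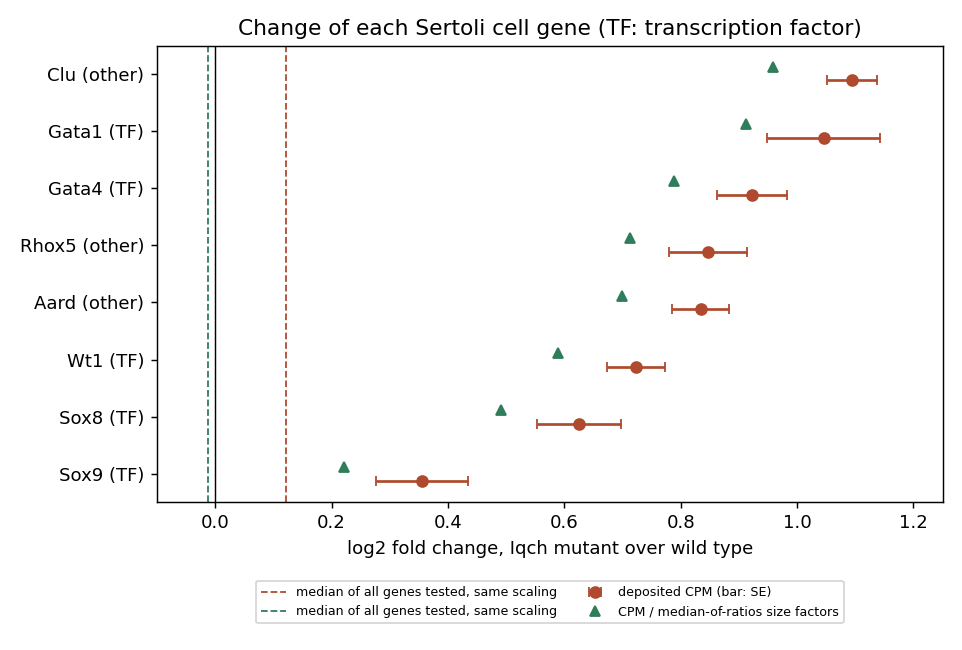
Log2 fold change of each gene, mutant over wild type, from deposited CPM (circles, bars are SE) and after scaling by median-of-ratios size factors (triangles). The dashed lines give the median of all 17126 genes under the same scaling, 0.12 and -0.01. The order of the genes is the same under both scalings, with Sox9 lowest and Clu highest.

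Levels of different genes are comparable only per length, taken here as CPM per kb of the canonical transcript. In wild type the order was Clu 469, Aard 92.8, Rhox5 16.3, Wt1 10.7, Gata4 6.18, Gata1 5.38, Sox9 4.29 and Sox8 3.57 CPM per kb. The secreted product thus stood far above the regulators. Neighbours in this order were separate from library to library except for Gata4 and Gata1, whose wild-type ranges overlapped. In the mutants Sox9 and Sox8 came to the same level, 5.51 CPM per kb each, with overlapping libraries. The levels and part of the order depend on the length used. On the union of all annotated exons the wild-type values were Clu 151, Aard 92.8, Rhox5 10.3, Wt1 5.54, Gata4 4.62, Sox9 4.29, Gata1 4.12 and Sox8 2.31 CPM per kb. The mean of Sox9 was now above that of Gata1, but the wild-type libraries of Gata4, Sox9 and Gata1 overlapped. In the mutants Sox9 (5.51) then stood above Sox8 (3.57).

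Ratios between members do not depend on the scaling of a library. Of the 28 pairs, 17 had log2 ratios that did not overlap between the genotypes, a share close to the 62.7% of all pairs of tested genes. Sox9, the member that rose least, fell against each of the 7 other members in every mutant library. That direction follows from its rank among the members. Its ratio to the 17125 other tested genes was lower without overlap for 17.6% of them. The log2 ratio of Sox9 to Sox8 was 0.58 to 0.62 in wild type and 0.26 to 0.46 in the mutants. Against Gata1 it went from 0.56 to 0.98 in wild type to 0.08 to 0.17 in the mutants. Clu, the member that rose most, rose without overlap against Sox9, Sox8, Wt1, Gata4 and Aard, with 86.9% of all tested genes as the background of such rises. The ratios of Clu to Gata1 and to Rhox5 overlapped between genotypes.

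The members were also set against other Sertoli cell genes of the same library, by the mean log2 level of 9 structural genes (cytoskeleton, junctions and the protease Ctsl). This mean rose by 0.68. Relative to it, Sox9 changed by -0.33, and all mutants lay below all wild types. Sox8 (-0.06), Wt1 (0.04) and Rhox5 (0.16) overlapped between genotypes. Aard (0.15), Gata4 (0.24), Gata1 (0.36) and Clu (0.41) lay higher in every mutant than in any wild type. The mean of the 5 transcription factors moved by 0.05 with overlap, and the mean of Rhox5, Clu and Aard by 0.24 without. These are descriptions with no test, and Sertoli cells share some of the 9 genes with germ cells and other somatic cells. Tjp1 (0.10), Lgals1 (0.14) and Cdh2 (0.21) rose little and lower the mean of the 9. Cldn11, Ctsl, Tubb3 and Vim each rose more than Aard and Gata4. The sign for Aard and Gata4 therefore depends on the structural genes chosen.

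**Figure D3:**
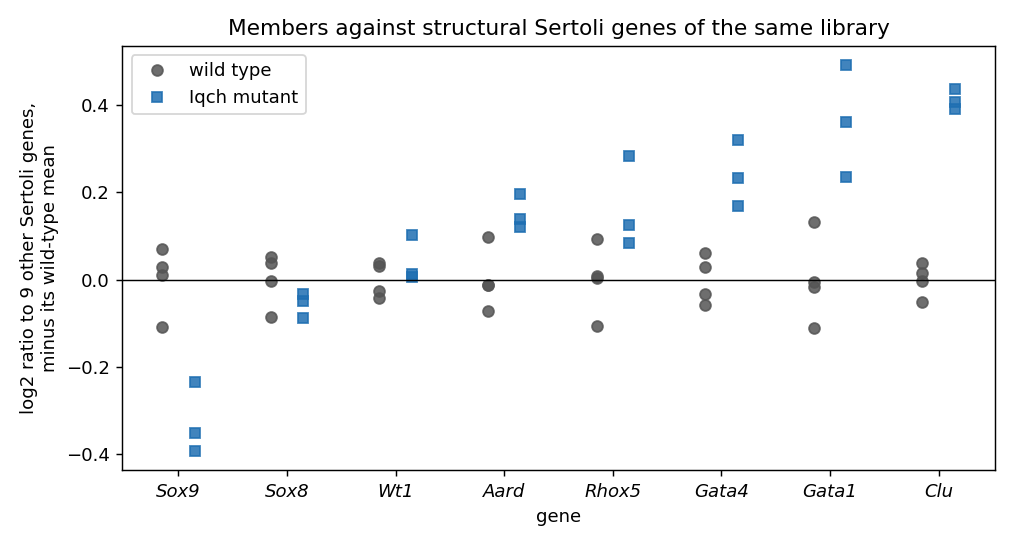
Log2 level of each gene minus the mean of 9 structural Sertoli cell genes in the same library, with the wild-type mean of each gene set to 0. Circles are the 4 wild-type and squares the 3 mutant libraries. Sox9 sits below 0 in every mutant at a mean of -0.33, Sox8 and Wt1 stay near 0, and Clu sits highest at 0.41.

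Other regulators of the Sertoli lineage were less uniform. Of 10 such genes, 7 rose, 1 fell and 2 were not called, with a median of 0.41. Nr5a1, the nuclear receptor of steroidogenic and Sertoli cells, rose from 38.6 to 121 CPM (log2 fold change 1.65). The part of Leydig cells in the value of Nr5a1 was not tested. Emx2, a homeobox gene of the early gonad, fell from 6.79 to 3.74 CPM (-0.85). The 2 genes without a call were Etv5 at 0.17 and Zfpm2, the GATA4 cofactor FOG2, at -0.12. With median-of-ratios size factors only 4 of the 10 remained higher, since Lhx9, Zfpm1 and Dmrt1 were no longer called. Lhx9 lay below the 2.2 CPM minimum of the fit in every wild-type library, so it could enter the test only through a rise.

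In the signal chain behind the FSH receptor more genes rose than fell. Of 12 genes, 7 rose, 1 fell and 4 were not called, with a median of 0.28. Over all genes tested, 36.3% were higher and 14.2% lower. The beta-arrestin genes Arrb1 and Arrb2, whose proteins desensitise receptors such as FSHR, rose by 1.13 and 1.10 on the log2 scale. Pde4d, which encodes a phosphodiesterase that breaks down cyclic AMP, fell from 5.79 to 2.67 CPM (-1.08). The 4 genes without a call were Adcy3 (0.14), Prkar2b (0.28), Prkaca (0.12) and Pde4b (0.24), so the catalytic subunit gene of protein kinase A stood at the median of all genes. All of these genes are active in many testis cells.

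Androgen response genes rose together with Rhox5. All 8 listed genes were called higher, with a median of 0.90. Serpina5, a protease inhibitor gene, went from 63.2 to 209 CPM (log2 fold change 1.73), and the tubulin gene Tubb3 from 33.6 to 74.5 (1.15). Zbtb16 was called at 0.80 (limma FDR = 0.0051), but its libraries overlapped between genotypes, and the call was lost with median-of-ratios size factors. Rhox8, the X-linked relative of Rhox5, went from 19.99 to 34.5 CPM (0.78), close to the 0.85 of Rhox5.

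Of 15 further genes of secreted Sertoli products, 14 had values and 13 rose, with a median of 0.99. Ptgds, which encodes a prostaglandin D synthase that Leydig cells also make, rose from 150 to 1252 CPM (3.11). Its wild-type libraries were spread widely, with an SD of 47.4 CPM. Serpina5 stands in this list as well. Pdgfa (0.01) was the gene without a call.

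Among the 9 structural Sertoli genes with values, 6 rose and 3 were not called, with a median of 0.66. Vim, the intermediate filament of Sertoli and other somatic cells, rose by 1.24 on the log2 scale, and Tubb3 belongs here too. The adhesion and junction genes Tjp1 (0.10) and Cdh2 (0.21), with Lgals1 (0.14), were not called. Genes of the granulosa side of the gonad, which Sertoli cells keep low, had values in 2 of 7 cases. Wnt4 went from 0.278 to 9.77 CPM and Fst from 0.927 to 5.84 CPM. Both lay below the 2.2 CPM minimum of the fit in every wild-type library. They passed it through the mutants alone, so they could enter the test only through a rise. These are values of whole testis, and the share from Sertoli cells was not measured. Wnt4 rested on 3 reads in wild type 2, so its fold change depends on the small value added before the log. The other genes of that list, Foxl2 and Rspo1 among them, are not analysed here.

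**Figure D4:**
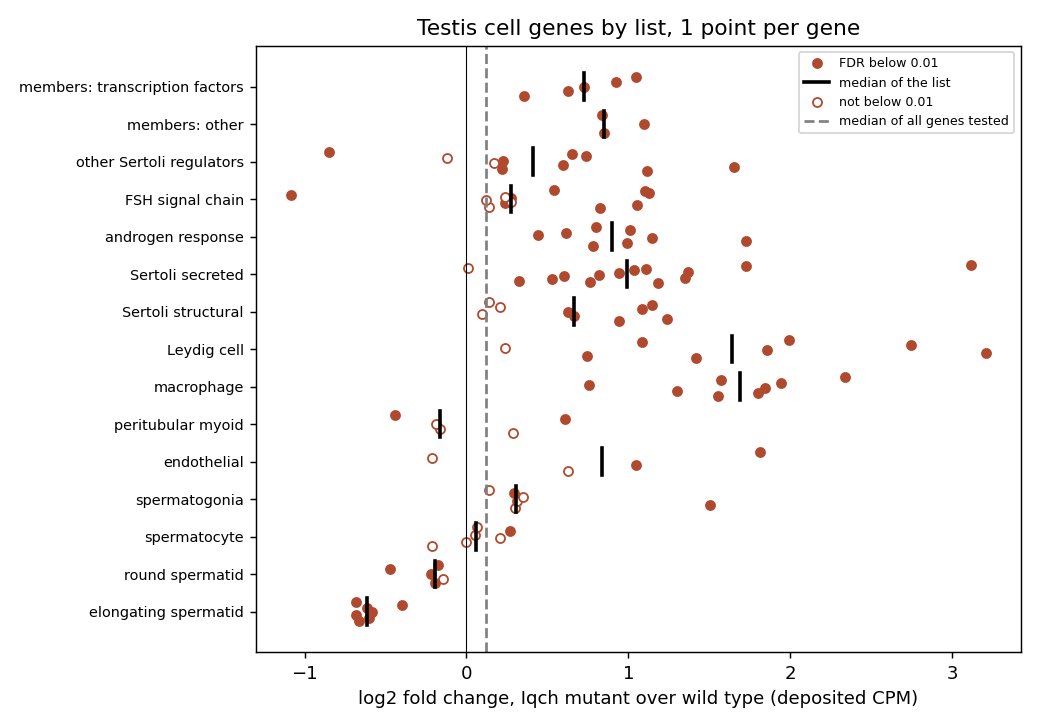
Log2 fold change of the listed genes with a value, 1 point per gene in each list, filled where the limma FDR is below 0.01. The granulosa and blood lists are not drawn. The black ticks are list medians and the dashed line is the median of all genes, 0.12. Every member and androgen response gene lies to the right of that line, as do the secreted genes except Pdgfa at 0.01, with the medians of the Leydig and macrophage lists farther to the right and that of the elongating spermatid list to the left at -0.61.

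Markers of other testis cells moved in the same libraries. Macrophage markers summed to 86.9 to 95.3 CPM in wild type and 261 to 298 in the mutants, with 8 of 8 genes higher, led by Lyz2 at 2.34 and C1qa at 1.94. Leydig genes were led by Hsd3b1 (3.21) and Insl3 (2.75), and Star was not called. Endothelial markers summed to 26.5 to 30.5 CPM against 40.7 to 42.5, where Kdr (1.81) and Cdh5 (1.05) of 4 genes rose. Pecam1 (0.63) was not called. Vwf, the largest part of the wild-type sum, went the other way without a call, from 18.3 to 15.8 CPM (-0.21). Peritubular myoid genes summed to 346 to 419 CPM against 286 to 326. Actg2 held most of that sum and was lower (299 to 221 CPM, -0.44), so the sum mainly follows this gene. Des was higher (0.61), and the 3 genes without a call were Acta2 (0.28), Myh11 (-0.16) and Cnn1 (-0.19).

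Germ cell lists differed by stage. Spermatogonial markers summed to 211 to 226 CPM in wild type and 265 to 302 in the mutants, and Kit (1.505), which Leydig cells share, and Uchl1 (0.29) of 6 genes rose. The call for Uchl1 was lost with median-of-ratios size factors (0.16, limma FDR = 0.084). Spermatocyte markers overlapped at 400 to 468 against 395 to 449 CPM, with Spo11 (0.27) alone of 6 higher, a call that was also lost with those factors (0.14, limma FDR = 0.077). Round spermatid markers summed to 1092 to 1140 against 913 to 970 CPM, and Tssk3, Acr, Acrv1 and Spata16 of 5 genes fell. With 1 library left out, 3 to 5 of them were called, and Acrv1 lost its call without wild type 1, wild type 2 or mutant 2 and Spata16 without mutant 4. All 7 elongating spermatid genes fell, from sums of 23036 to 24402 CPM in wild type to 14603 to 16742 in the mutants, with Tnp1 and Smcp both at -0.68. CPM is a share of each library, and the part of all these cell types in the members' values was not tested.

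Finally, genes whose pattern across the 7 libraries was most like the members' were listed, by Pearson's r over 13843 genes with a mean of at least 5 CPM. Nearest to the mean of the transcription factors were Trim7 and Casp6 (r = 0.9995 each) and Trim26 (r = 0.9994). Nearest to the mean of Rhox5, Clu and Aard were C7 (r = 0.9996), Cat (r = 0.9994) and Serpina3n (r = 0.9993). The 7 libraries form 2 groups, so r is close to 1 for any gene with a clear gap between them. The sizes of the change still differed widely, from 1.70 times for Trim26 to 32.3 times for Serpina3n.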

How the data were processed

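RNA-seq libraries came from whole testes, 4 wild type and 3 Iqch mutant. The labels give replicate numbers but no batch, and 1 listed mutant has no column here. Per the study's methods, the authors used Trimmomatic for trimming, Subread for mapping to GRCm39 and featureCounts for counting, kept genes with at least 75 reads in 2 samples of a group, and tested with edgeR and DESeq2. The strand setting and annotation release were not given in the sources used here, so reads of Sox9, Wt1, Gata1 and Rhox5 cannot be told from overlapping antisense RNAs (3.82 to 13.3% of exon bases).

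The deposited values are the authors' CPM, which sum to 1000000 in each library, with no factor between libraries. All values were whole multiples (within 0.01) of a step per library, from which reads were computed. Depth was 32064384 to 37551057 reads. The reads behind a member's value ran from 323 (Gata1) to 61424 (Clu).

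In R 4.3.3, limma 3.58.1 with a mean-variance trend was run on log2(CPM + 0.1) for genes with at least 2.2 CPM in 2 samples of a group, with Benjamini-Hochberg adjustment over 17126 genes and an FDR threshold of 0.01. It was tested on simulated counts with few changed genes, as many raised as lowered, and so not at a split like the one here. P-values measure the spread between these libraries. Fold changes of low genes are understated on this scale. Single genes had an exact two-sided permutation test. Gene positions came from GENCODE M39 (17045 of 17127 genes matched) and start windows from RefSeq. Tables were joined in Python 3.11.15 with pandas 2.3.3, SciPy 1.17.1 and NumPy 2.4.6, and matplotlib 3.10.9 drew the figures.

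The genes and lists were chosen with earlier results of these data known. Named genes are the members, Iqch, the 2 called genes with the largest rise and fall of each list, the 3 nearest in pattern, and all genes in counts of 5 or fewer. The values of 1 gene are not reported here. The blood list, Rhox8, Wt1os, Star, Zbtb16, Inhbb, Amh, Prkar1a and Creb1, the 3 regulators that lost their call, and Foxl2 and Rspo1 were named after values were seen. The alternatives were pseudocounts of 1 and 0.01, no CPM minimum or one of 5, factors by TMM and by median of ratios, the replicate number as a block, Rhox5 counted with the transcription factors, and each library left out in turn. limma-voom on reads was added after seeing the data.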

Additional observations from a re-analysis of the deposited data

Results flagged for a closer look

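Of 54 genes examined for a wild-type library far from the others, 1 was picked out. Acr, an acrosomal protease gene of spermatids, had 181 CPM in wild type 1 against 173 to 174 CPM in the other wild types. Chance picks about 1 in 20 groups in this way, and no member of the Sertoli cell set was picked.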

How the results depend on the processing

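Sox9 was the member whose call changed. Its log2 fold change was 0.22 with median-of-ratios size factors and 0.24 with both TMM factors and limma-voom, with FDRs above 0.01, and 0.28 to 0.41 when 1 library was left out, with the call lost without mutant replicate 2. In those 4 cases 7 members were called higher. The other 7 members kept their direction and call under every alternative, with log2 fold changes of 0.49 to 0.65 (Sox8), 0.59 to 0.75 (Wt1), 0.79 to 0.94 (Gata4), 0.91 to 1.13 (Gata1), 0.71 to 0.88 (Rhox5), 0.96 to 1.12 (Clu) and 0.70 to 0.87 (Aard). The medians of the transcription factors and of the other members were 0.59 and 0.71 with median-of-ratios factors, 0.60 and 0.73 with TMM and with limma-voom, and the other members' median was 0.96 with Rhox5 counted among the transcription factors.

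The number of genes lower rose from 2428 to 4294 with median-of-ratios factors, 4107 with TMM and 4059 with limma-voom, because these scalings take the median of all genes from 0.12 to -0.01, 0.00 and 0.00. Under the same 3 scalings 1 endothelial gene, Vwf, was lower, 1 spermatogonial gene higher, and 0 spermatocyte genes were higher and 1 lower. Sertoli regulators higher numbered 4 with median-of-ratios factors. The uncalled genes Prkaca (-0.015, -0.0011 and -0.00072), Pdgfa (-0.13, -0.11 and -0.11) and Tjp1 (-0.036, -0.023 and -0.022) changed sign there. Amh, Inhbb, Prkar1a, Creb1, Uchl1 and Spo11 lost their calls under all 3.

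Leaving out 1 library gave 5303 to 6111 genes higher and 1934 to 2392 lower. Spermatogonial genes higher numbered 1 to 3 (1 without wild type 2 or 3 or mutant 2), spermatocyte genes higher 0 to 1 (0 without wild type 1 or mutant 2 or 4) and lower 0 to 1 (1 without wild type 4), and myoid genes higher 1 to 2 (2 without mutant 4). Pdgfa ranged from -0.042 to 0.068. The cause was not tested.

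With the replicate block, which leaves wild type 3 without a partner and so without weight, 5583 genes were higher and 2139 lower, all 8 members were called, and 1 spermatogonial gene was higher. Same-numbered libraries did not deviate together (r = 0.03, 0.01 and -0.10), so the numbers are not taken as pairs. The planned count tests with edgeR and DESeq2 were not run. Fshr and mutant 3 are not analysed here, and 7 libraries of whole tissue limit what can be said of one cell type.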
